A study of Drosophila melanogaster with 24 samples.

Results

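The gene vrille (vri) of Drosophila melanogaster was examined as a target of CLOCK (CLK) and CYCLE (CYC), using the peaks called for these proteins in head, testis and ovary. A peak was taken as a vri peak when its midpoint lay inside the gene or within 5 kb of either end. This rule found 12 of the 7810 peaks in the 6 lists, with 6 for CLK in head, 5 for CYC in head, 1 for CYC in ovary, and none for CLK in ovary or for either protein in testis. The rule takes peaks by position alone, but the gene and the measures used here were chosen with earlier results of these data known.

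Chromatin immunoprecipitation and sequencing (ChIP-seq) was carried out with an antibody against GFP on whole heads, testes or ovaries, 200 heads or 200 gonad pairs in a biological replicate. All groups were fixed at ZT10, which is 10 h after lights on. Each protein and tissue had 2 immunoprecipitated libraries and 2 input libraries made from 5% of the chromatin, which gave 24 libraries in 12 groups. The genotype of the flies, the construct carrying GFP, the strain, the age and the sex of the flies behind the head samples are unknown here, and no library from flies without a tagged protein was used. The lists held 1016 CLK and 394 CYC peaks for head, 2491 and 1583 for testis, and 351 and 1975 for ovary. Each was a list for its group as a whole, with no list per replicate, so no value below carries an error between replicates and none was tested. The lists gave the start and end of each peak without height or score, so width, the end minus the start, was the only measure of size. Read depth was unknown.

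CLK and CYC are bHLH-PAS proteins that bind DNA as a pair at E-box sequences and switch on the genes of the fly clock. Among these genes are period (per) and timeless (tim), whose proteins return to the nucleus and inhibit CLK and CYC. In an interlocked loop the pair also activates vri and Par-domain protein 1 (Pdp1), which encode basic leucine zipper (bZIP) proteins. VRI represses transcription of Clk, and PDP1 activates it. Outside the clock, vri is required in the embryo and for the growth of cells and wing hairs.

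The gene vri (gene ID 33759, CG14029) spans 2L 5288944 to 5311223 in dm6, a length of 22.28 kb, and the RefSeq table lists 5 transcripts for it. The table gave neither strand nor exons, so the ends of the gene are called lower and upper by coordinate here, and exons, introns and the starts of the separate transcripts were not told apart. Within 5 kb below the lower end lie the long noncoding RNA genes lncRNA:CR44743 (5287447 to 5288667) and lncRNA:CR44742 (5287848 to 5288361). The noncoding gene lncRNA:CR45730 (5297486 to 5297928) lies within vri. Above the upper end, CG14024 begins 88 bp away and Ncoa6, which encodes a nuclear receptor coactivator, begins 4067 bp away.

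In head, CLK and CYC were called at the same places along vri, and at no other place within 5 kb of it. All 6 CLK peaks overlapped a CYC peak by at least 1 bp, and all 5 CYC peaks overlapped a CLK peak. The peaks fell at 5 sites, numbered here from the lower end of the gene to the upper. Site 1 lay across the lower end, site 2 stood alone inside the gene, and sites 3 to 5 were packed into a stretch of about 5.2 kb in the upper part of the gene body. All the midpoints of the head peaks lay inside the gene. A CLK peak within the gene or 5 kb was present at 17.2% of the 13922 protein-coding genes, a CYC peak at 8.20%, and a CLK peak that met a CYC peak at 1.80%. Among the 1012 genes of 20 kb or longer, the length class of vri, these shares were 33.8%, 13.4% and 4.84%.

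**Figure D1:**
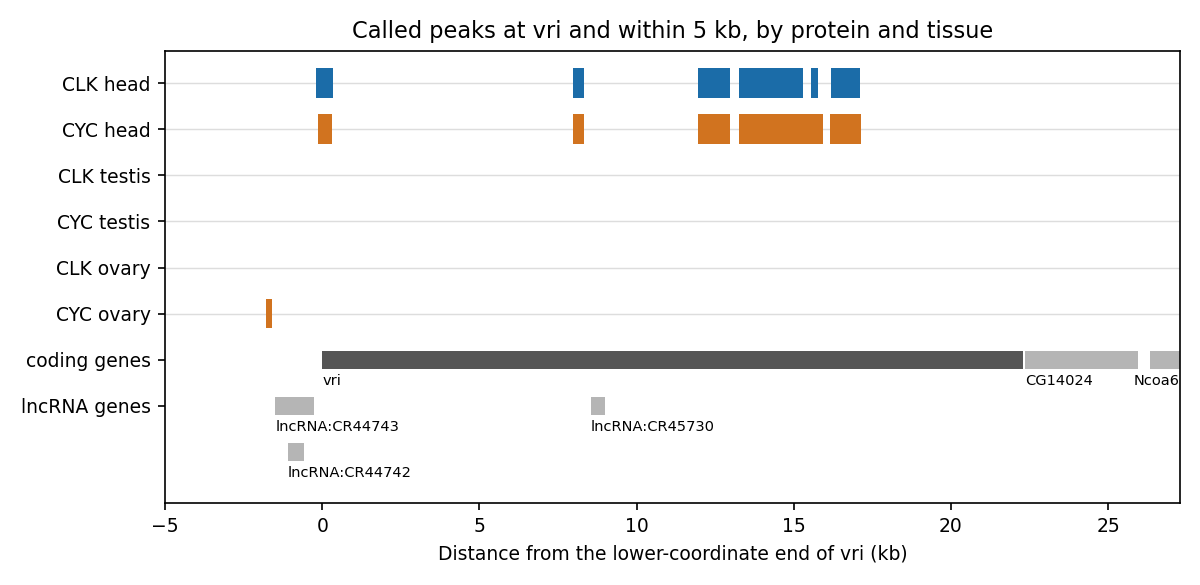
Peaks called for CLK (blue) and CYC (orange) along vri and 5 kb on either side, with the horizontal axis in kb from the lower-coordinate end of the gene, 1 row per protein and tissue, and annotated genes in grey at the bottom. The 6 CLK and 5 CYC peaks of head stand at the same places, both testis rows and the CLK ovary row are empty, and the 1 CYC ovary peak lies outside the gene.

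Site 1 spanned the lower end of vri for both proteins. The CLK peak ran from 2L 5288729 to 5289285 (556 bp) and the CYC peak from 5288808 to 5289259 (451 bp). The CYC peak lay wholly within the CLK peak, and the midpoints were 63 bp and 89.5 bp inside the gene. The CLK peak began 62 bp above the annotated end of lncRNA:CR44743, so the site also adjoins that gene. Within their own lists these peaks were the 51st widest of 1016 and the 53rd widest of 394.

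Site 2 was the narrower of the isolated sites. The CLK peak ran from 2L 5296924 to 5297282 (358 bp) and the CYC peak from 5296920 to 5297263 (343 bp), with midpoints about 36.6% of the way along the gene. Their starts differed by 4 bp and their ends by 19 bp. The site lay 7.64 kb above site 1 and 3.62 kb below site 3 for CLK, and 7.66 kb and 3.62 kb for CYC. It ended 204 bp (CLK) and 223 bp (CYC) before lncRNA:CR45730, the noncoding gene inside vri. With rank 287 of 1016 for CLK and rank 115 of 394 for CYC, its peaks were still wider than 71.7% and 70.8% of their lists.

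Sites 3, 4 and 5 followed each other with gaps of under 400 bp. The stretch ran from 2L 5300902 to 5306062 for CLK (5160 bp) and from 5300883 to 5306071 for CYC (5188 bp), and its upper border was 5.16 kb and 5.15 kb from the upper end of the gene. Peaks covered 81.5% of it for CLK and 89.5% for CYC. It held 4206 bp of the 5120 bp under CLK peaks at vri (82.1%) and 4642 bp of the 5436 bp under CYC peaks (85.4%). Gaps within the stretch measured 295, 269 and 390 bp between the 4 CLK peaks and 306 and 240 bp between the 3 CYC peaks. Such spacing was rare in both lists. Gaps under 400 bp made up 12 of 1010 between neighbouring CLK peaks (1.19%) and 7 of 388 between CYC peaks (1.80%). These counts include the gaps at vri. The median gaps were 59.6 kb and 197 kb. The limit of 400 bp was set after the data were seen, just above the widest gap within the stretch (390 bp). When peaks closer than 400 bp were joined, a setting chosen after the data were seen, each protein had 3 regions at vri in place of its 6 or 5 peaks.

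At site 3 the CLK peak ran from 2L 5300902 to 5301919 (1017 bp) and the CYC peak from 5300883 to 5301905 (1022 bp). These were the 4th widest CLK peak and the 2nd widest CYC peak of head. Their widths differed by 5 bp, their starts by 19 bp and their ends by 14 bp.

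Site 4 held the widest head peak of either protein, from 2L 5302214 to 5304234 for CLK and from 5302211 to 5304868 for CYC. The widths of 2020 bp and 2657 bp were 7.09 times and 9.51 times the median widths of the lists, which were 285 bp and 279.5 bp. The starts lay 3 bp apart, while the CYC peak ended 634 bp beyond the CLK peak. In that further part the CLK list had a separate narrow peak, from 5304503 to 5304727 (224 bp), which lay wholly inside the CYC peak. Site 4 was therefore undivided for CYC and divided for CLK, with 269 bp between the CLK peaks. The narrow CLK peak ranked 830th of 1016 and was the only vri peak of head below the median width of its list.

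Site 5 showed the closest match. The CLK peak ran from 2L 5305117 to 5306062 (945 bp) and the CYC peak from 5305108 to 5306071 (963 bp), so the CYC peak reached 9 bp further on both sides and the midpoints fell on the same base. They ranked 7th for CLK and 4th for CYC. Of the 10 CLK peaks of head that were 900 bp or wider, 3 were at vri, and of the 5 such CYC peaks, 3 were at vri. The limit of 900 bp was chosen with these data known and lies just below the widths of site 5. At 1000 bp or wider, 2 of 4 CLK peaks and 2 of 2 CYC peaks were at vri.

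**Figure D2:**
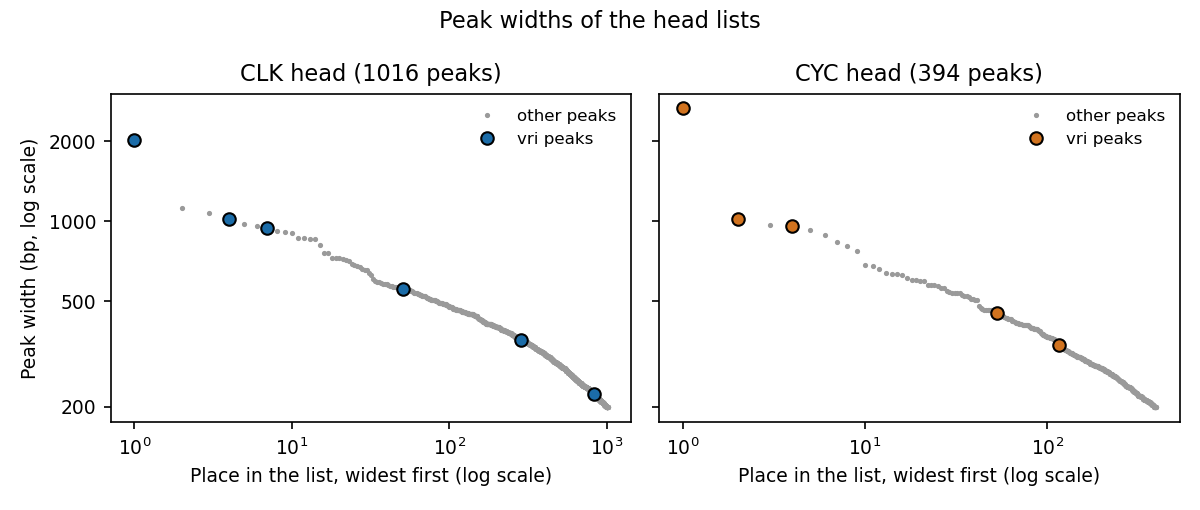
Width of every head peak in bp (vertical axis, log scale) against its place in the list from the widest (horizontal axis, log scale), for CLK (left) and CYC (right), with vri peaks as large filled points and the others as small grey points. The widest peak of each list is a vri peak, at 2020 bp and 2657 bp, while the vri peak of 224 bp lies among the narrow CLK peaks.

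At sites 2, 3 and 5 of vri the borders of the CLK and CYC peaks nearly coincided, while site 1 and above all site 4 differed at a border. The 6 CLK peaks gave 6 meeting pairs at vri, and 111 pairs met elsewhere in the genome. At vri the shared bases made up 81.1%, 93.6%, 96.8%, 76.0%, 8.43% and 98.1% of the bases under either peak of the pair, in order along the gene. The value of 8.43% is that of the narrow CLK peak of site 4 against the wide CYC peak. The median was 87.4% at vri and 65.6% over the other pairs, whose highest value was 94.8%. Sites 5 and 3 ranked 1st and 2nd of the 117 pairs by this measure, and site 2 ranked 5th.

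Both borders fell within 20 bp of each other in 3 of the 6 pairs at vri, at sites 2, 3 and 5. The same held in 5 of the 111 other pairs (4.50%). The limit of 20 bp was chosen with these data known. It lies just above the largest border difference at those 3 sites, 19 bp. The difference between midpoints at vri was 26.5, 11.5, 16.5, 315.5, 1075.5 and 0 bp in order along the gene, and its median over the other pairs was 51.0 bp. The CYC peak was the wider in 4 of the 6 pairs at vri, 2 of which share the wide CYC peak of site 4, and in 49 of the 111 other pairs (44.1%). Wider peaks can share a larger part of their length for the same shift of the borders, and the pairs at vri are neighbours in 1 gene and not independent, so these values are given as a description. Over the head lists as a whole, 117 of 1016 CLK peaks met a CYC peak (11.5%, exact Clopper-Pearson 95% interval 9.62 to 13.6%), an interval that covers the counting of peaks only.

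**Figure D3:**
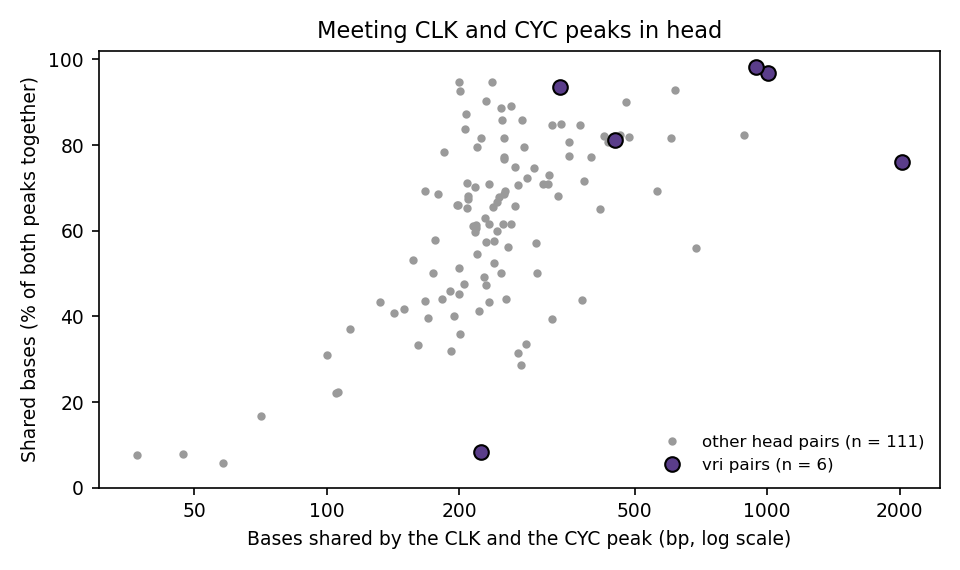
Each point is a CLK peak and a CYC peak that overlap in head, with the shared bases in bp on the horizontal axis (log scale) and the shared bases as a percentage of both peaks together on the vertical axis; vri pairs are large purple points and the 111 other pairs are grey. The vri pairs of sites 3, 4 and 5 share the most bases (1003, 2020 and 945 bp), and the narrow CLK peak of site 4 lies low at 8.43%.

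Summed over the gene and 5 kb on either side, vri had more bases under CLK peaks and more under CYC peaks in head than any other protein-coding gene. The summed widths were 5120 bp for CLK and 5436 bp for CYC, which made up 1.55% and 4.21% of all bases under the peaks of the 2 lists. The peaks of vri were 0.591% of the CLK peaks and 1.27% of the CYC peaks. By number, vri had the most CYC peaks, with 5, and 0.00718% of the genes (vri alone) reached that number. For CLK vri came behind Pdp1, and 0.0144% of the genes (2 genes) had 6 or more. With peaks closer than 400 bp joined, vri had 3 CYC peaks. CYC peaks of Pdp1 also lay closer than that, with a gap from 3L 7833367 to 7833748. The lead of vri by number of CYC peaks thus depends on how close peaks are split. No other gene had 6 CLK peaks that met a CYC peak (0.00718% of the genes). Of those at vri, the CLK peaks of site 4 met the same wide CYC peak. With midpoints within 200 bp as the rule, vri had 4. The 4 meeting pairs of Pdp1 had midpoints 26.5 to 69 bp apart, so vri was not ahead of Pdp1 by that rule.

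Longer genes have more room for peaks. Per kb of gene and window, vri had 159 bp under CLK peaks and 168 bp under CYC peaks, which ranked 3rd and 1st of 13922 genes. The genes ahead of it for CLK were the short genes CG2652 (209 bp per kb) and CG31954 (161 bp per kb), which lie beside per and tim and whose windows hold the same head peaks as those genes.

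Of the clock genes that CLK and CYC activate, vri was compared with per, tim, Pdp1 and clockwork orange (cwo), which encodes a bHLH repressor of the same E-boxes. In head, per had 3 CLK peaks with a summed width of 2289 bp and 2 CYC peaks with 1446 bp. For tim there were 2 CLK peaks (1778 bp) and 2 CYC peaks (1433 bp). Pdp1 had 9 CLK peaks (3998 bp) and 4 CYC peaks (1934 bp). At cwo there was 1 CLK peak of 294 bp and no CYC peak. Of these 5 genes, vri alone had more bases under CYC peaks than under CLK peaks. The excess came from site 4, where CYC had an undivided peak of 2657 bp and CLK had peaks of 2020 and 224 bp. At sites 1 and 2 the CLK peak was wider by 105 and 15 bp, and at sites 3 and 5 the CYC peak by 5 and 18 bp.

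The coincidence of both proteins also differed between these genes. By overlap of at least 1 bp, every CLK peak met a CYC peak at vri (6 of 6) and at tim (2 of 2). The count was 2 of 3 at per, 4 of 9 at Pdp1 and 0 of 1 at cwo. At vri the 2 CLK peaks of site 4 met the same CYC peak. With midpoints within 200 bp as the rule, vri kept 4 of its 6. The meeting pairs of per had midpoints 94.5 and 7 bp apart, and those of tim 24 and 272.5 bp. The order by meeting peaks thus depends on the rule. Bases under both proteins made up 89.4% of the bases under either at vri, 68.8% at tim, 63.2% at per and 41.0% at Pdp1. The widest peaks of the other genes were 1120 bp (CLK) and 805 bp (CYC) at tim, 1075 bp and 884 bp at per, and 730 bp and 635 bp at Pdp1. Pdp1, which encodes the bZIP activator that acts on Clk opposite to VRI, thus had more CLK peaks than vri over a gene of 55.9 kb, but narrower ones. Both genes held a run of neighbouring CLK and CYC peaks inside the gene body, from 3L 7832888 to 7835583 for CLK at Pdp1 (3 peaks, each meeting a CYC peak). The run at Pdp1 was looser than the stretch at vri, where all gaps were under 400 bp. At Pdp1 the gaps from 7834234 to 7834874 for CLK and from 7834295 to 7834843 for CYC were wider than that. These comparisons rest on 1 list per protein and have no test.

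**Figure D4:**
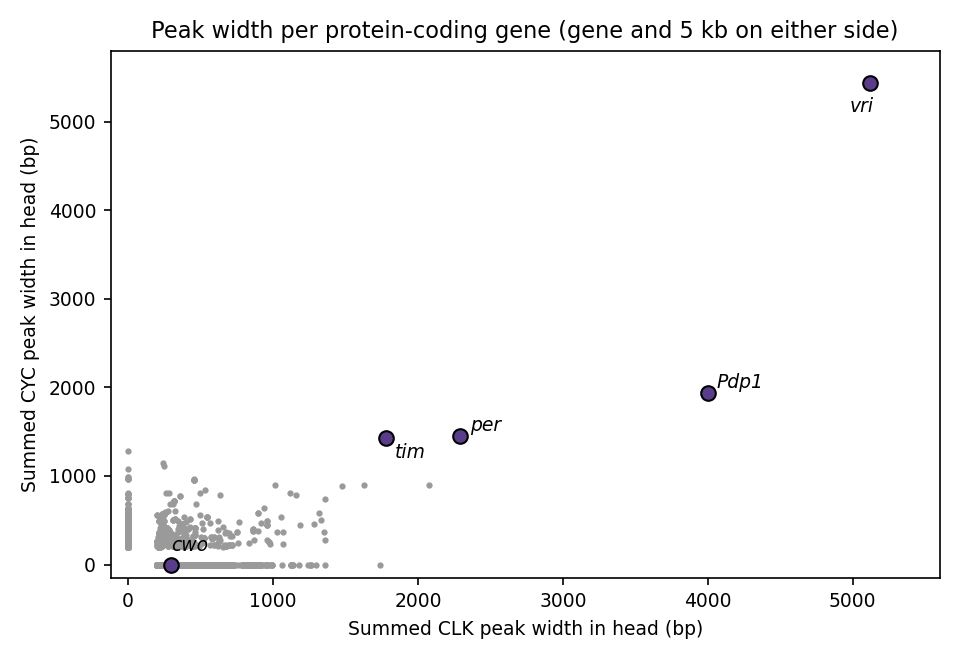
Summed width of CLK peaks (horizontal axis, bp) and of CYC peaks (vertical axis, bp) in head for every protein-coding gene with a peak of either protein within the gene or 5 kb, with vri and the loop genes per, tim, Pdp1 and cwo in purple and all others in grey. vri stands alone at 5120 bp and 5436 bp, followed by Pdp1 at 3998 bp and 1934 bp.

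In the gonads vri had almost no peaks. No CLK or CYC peak of testis lay in the gene or within 5 kb, as was the case for 52.1% of protein-coding genes. A CLK peak was present at 36.3% of the genes in testis and 3.76% in ovary, and a CYC peak at 23.1% in testis, so an empty window was common in each of these lists. Among genes of 20 kb or longer these shares were 41.7%, 10.7% and 29.8%. A CLK peak that met a CYC peak was found at 3.08% of all genes in testis and 1.07% in ovary, and vri had none. The nearest testis peaks were a CYC peak inside Bub1, a spindle checkpoint gene (2L 5280625 to 5280896, 271 bp), at 8.18 kb below the gene, and a CLK peak 23.7 kb below it. The nearest CLK peak of ovary was 348 kb away. A site used in few cells of a tissue cannot be told apart from a site weakly used in many, and with unknown depth the lack of a called peak does not show a lack of binding.

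The 1 gonad peak of the locus was a CYC peak of ovary at 2L 5287142 to 5287341. It was 199 bp wide, the smallest width in its list, which 71 of the 1975 CYC peaks of ovary shared. Its midpoint lay 1702.5 bp below the lower end of vri, and its end lay 106 bp before the start of lncRNA:CR44743, the nearest annotated gene. The peak also lay within 5 kb of Bub1, so it is not assigned to vri alone. The CLK peak of site 1 in head began 1388 bp further up and the CYC peak 1467 bp, so the ovary peak met none of the head peaks. No CLK peak of ovary met it. A CYC peak of ovary was present within the same distance of 22.2% of protein-coding genes and of 39.9% of those of 20 kb or longer. No vri peak of either protein was shared between tissues.

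At per, tim, Pdp1 and cwo gonad peaks were few as well. The CYC peaks of tim in testis and of per and Pdp1 in ovary were wider than the medians of their lists, 272 bp and 312 bp. The other gonad peaks of these genes were narrower than the medians of theirs. tim had 2 CLK peaks and 1 CYC peak in testis, with a summed width of 493 bp and 298 bp. Pdp1 had 1 CYC peak in testis (262 bp) and 1 peak of each protein in ovary (246 bp for CLK and 442 bp for CYC). per had 1 CYC peak in ovary (325 bp) and cwo 1 CLK peak in testis (199 bp). None of these gonad peaks met a peak of the partner protein in its tissue.

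**Figure D5:**
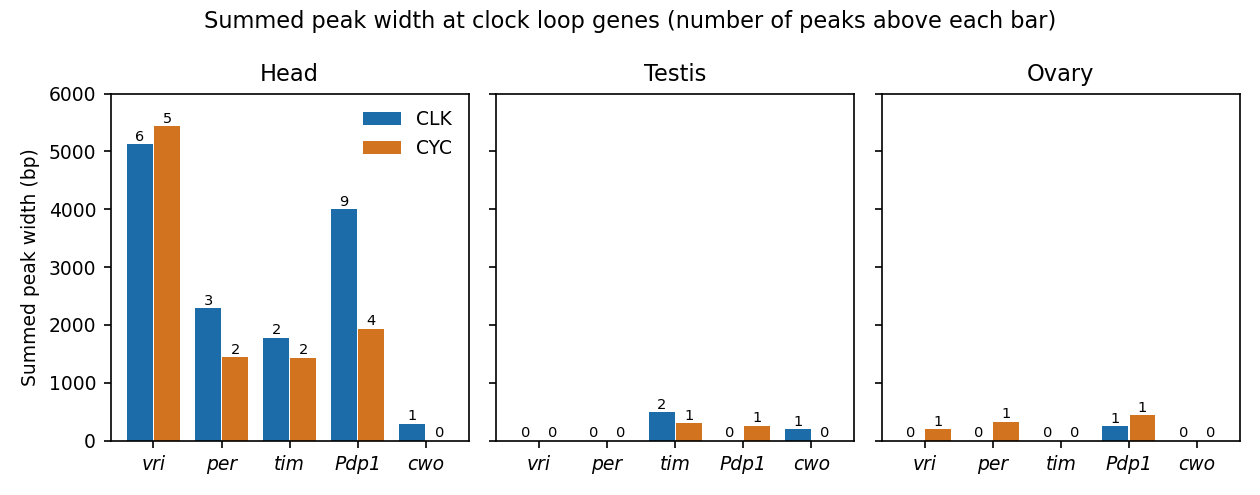
Summed peak width in bp for CLK (blue bars) and CYC (orange bars) at vri, per, tim, Pdp1 and cwo in head, testis and ovary, with the number of peaks above each bar; 1 list stands behind each bar, so there are no error bars. In head vri has the tallest bars, and no gonad bar exceeds 493 bp.

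Over the list of 16 clock genes, which includes the activators Clk and cyc, the kinases dco and sgg, the photoreceptor gene cry and others, 9 had a CLK peak and 5 a CYC peak in head within the gene or 5 kb, against 17.2% and 8.20% of all protein-coding genes. The 5 with CYC were vri, per, tim, Pdp1 and dco, the last of which encodes the kinase Doubletime. The 4 genes vri, per, tim and Pdp1 had peaks of both proteins in head. In ovary 10 of the 16 had a CYC peak, against 22.2% of all genes. The gene vri was among these 10 only through the narrow peak outside the gene. In testis 6 of the 16 (37.5%) had a CLK peak and 5 (31.25%) a CYC peak, against 36.3% and 23.1% of all genes. For CLK in ovary it was 2 of the 16 (12.5%), against 3.76%. Of the 16 genes, vri, per and Pdp1 had peaks of both proteins in head and of CYC in ovary, and Pdp1 had peaks in 2 further lists. Clk, the target of VRI, had 3 CLK peaks in head (1256 bp) and no CYC peak there, while in testis it had 4 CLK peaks (2966 bp), 2 of which met a CYC peak of 2953 bp, the widest of its list. In ovary Clk had 3 CLK peaks (1408 bp) and 1 CYC peak (253 bp), which did not meet. Of 3 genes for related bZIP proteins, Pdp1 had peaks, while giant (gt) and slow border cells (slbo) had none in any list, which is the more common state of a gene in each list, since the share of genes with a peak ran from 3.76% to 36.3%.

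The protein-coding genes most like vri in the 6 lists were Pdp1, per, CG2652, CG31954 and tim, in that order. Likeness was measured as the Euclidean distance between the 6 summed widths of each gene, 1 per list. The distances from vri were 3703, 4894, 4948, 5225 and 5250 bp, and a gene without any peak is 7470 bp away. CG2652 shared all its head peaks with per (3 for CLK and 2 for CYC) and CG31954 shared all of its own with tim (2 and 2), so these neighbours add no separate pattern. Even the nearest of them, Pdp1, had 1934 bp under CYC peaks in head, against 5436 bp at vri.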

How the data were processed

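Peak lists for CLK and CYC in head, testis and ovary were used as deposited by the authors, 1 for each pairing. The submitters' processing notes name dm6 as the build and, as tools, MACS2, Bowtie2, fastp, Picard, SAMtools, deepTools and ChIPseeker. Versions, the peak threshold and how replicates and input were combined are not stated. Lists were matched to groups by protein and tissue initial. Each deposited list held 3 columns without a header (chromosome, start, end). All list names carry the tag "pro", whose meaning is not stated; if it marks a filter, the numbers of peaks, gaps and gene shares refer to the filtered lists. The smallest end minus start was 199 bp in all 6, so starts may count from 0 or 1 and true widths may be 1 bp larger; positions are as deposited. Chromatin was sheared to 100 to 500 bp, per the labels' protocols.

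Genes were taken from RefSeq's gene table for Release 6 plus ISO1 MT, the assembly that dm6 names; its 13922 protein-coding genes on the 6 major chromosome arms are the background. Python 3.11.15, pandas 2.3.3, NumPy 2.4.6 and SciPy 1.17.1 were used, and the counting was tested on simulated peaks. Overlap meant at least 1 bp. No test was run, since each group had 1 list. The gene, the gene lists and the measures were chosen with earlier results of these data known. The rule named vri, every gene within 5 kb of it, per, tim, Pdp1, cwo, clock genes with peaks in the same lists and the 5 genes nearest to vri by summed widths. Other clock and bZIP genes are named as members of their lists, and Bub1, Cipc and CG14556 after their values were seen. The planned search for E-box letters (CACGTG) needed a sequence and was not run. The alternatives changed the window, the assignment of peaks, the overlap rule, the width minimum and the joining of close peaks.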

Additional observations from a re-analysis of the deposited data

How the results depend on the processing

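The 6 CLK and 5 CYC peaks of head stayed at those numbers with windows of 0 bp, 1 kb and 10 kb, with any overlap in place of midpoints and with peaks closer than 200 bp joined. In the widest 50% of each list CLK had 5 and CYC 5. The number of CLK peaks of head that met a CYC peak was 6, and it became 5 with reciprocal overlap of 50%, 4 with midpoints within 200 bp and 5 in the widest 50%. Joining peaks closer than 400 bp, added after the data were seen, gave 3 peaks for each protein, 3 CLK peaks meeting CYC, and widest regions of 5160 bp for CLK and 5188 bp for CYC. The CYC peak of ovary was lost (0 peaks) with windows of 0 bp and 1 kb and in the widest 50%, and 1 CYC peak of testis entered with a window of 10 kb. No vri peak was shared between tissues with reciprocal overlap or with midpoints within 1 kb (0 in both). The share of genes with a peak moved with the window. At 0 bp it was 5.23, 12.9 and 1.24% for CLK in head, testis and ovary and 2.05, 7.35 and 6.96% for CYC. At 1 kb it was 9.07, 17.8 and 1.73% for CLK and 4.13, 10.1 and 11.1% for CYC. At 10 kb it moved by over 1.5 times to 12.5% for CYC in head and 6% for CLK in ovary. No paired analysis was possible because no list was given per replicate, and for the same reason no replicate could be left out. The E-box search with its variant letters was not run. Depth was unknown, and width does not measure enrichment.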

Other observations

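Beyond the genes named by rule, Cipc was the next nearest to vri by the distance between summed widths (5472 bp), with peaks not shared with per or tim. This distance depends on the size of the summed widths and does not compare their proportions. Cipc is the fly gene named after a mammalian inhibitor of CLOCK, and it was looked up after its values were seen. Cipc (3R 26106868 to 26130674) had 4 CLK peaks and 3 CYC peaks in head, with summed widths of 2076 bp and 901 bp, against 5120 bp and 5436 bp at vri. Its peaks in order were 448, 278, 391 and 959 bp wide for CLK, and the last 3 of them met the CYC peaks of 324, 301 and 276 bp. With 3 CLK peaks meeting CYC it came after vri (6) and Pdp1 (4), level with CG14556, which lies inside it and shares those peaks. In the gonads Cipc had 1 CLK peak in testis (263 bp) and no other. At the last site the CLK peak (959 bp, 6th widest of 1016) was much wider than the CYC peak (276 bp). At sites 3 and 5 of vri the widths of both proteins differed by only 5 and 18 bp. Site 4 of vri also had unequal widths, in the other direction. Its CYC peak of 2657 bp was 637 bp wider than the CLK peak of 2020 bp.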
